A study of Mus musculus with 17 samples.

Results

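The interferons and interferon receptors measured here are 6 genes: the ligands Ifnb1 and Ifng and the receptor chains Ifnar1, Ifnar2, Ifngr1 and Ifngr2. They were the rows of a TPM table with exactly these symbols, 6 of 21683 rows. The rule used symbols and not levels, but it was set with earlier results of these data known. The table came from RNA-Seq of thioglycollate-elicited peritoneal macrophages (PMs) in 17 libraries, namely 6 of IKKβF/FLDLR-/- cells with PBS (F/F PBS), 6 of IKKβF/FLDLR-/- cells with Tat (F/F Tat) and 5 of IKKβΔMyeLDLR-/- cells with Tat (ΔMye Tat). Tat is the transactivator protein of HIV, added here as recombinant protein, and IKKβ is the kinase that activates the canonical NF-κB pathway. The comparisons address how Tat changes the macrophage transcriptome and how much of that change involves macrophage IKKβ.

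All 3 groups were C57BL/6, lacked the LDL receptor and carried loxP-flanked IKKβ alleles. The ΔMye group also carried a heterozygous LysM-Cre knock-in, which is active in myeloid cells and not in lymphocytes. The mice were 8 weeks old and received 1 mL of 3% thioglycollate. The sample labels date the cell collection at 3 days after the injection, and the methods give 4 days. The adherent cells were left for 4 h and then held for 12 h with 100 nM Tat or with PBS. No IKKβΔMye macrophages given PBS were analysed here, so what separates ΔMye Tat from F/F Tat may have been there before Tat. A caption of the study describes the libraries as biological replicates of mice, while the labels tie no library to an animal, so p-values measure the spread between these libraries.

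Interferons are secreted cytokines that act through paired receptor chains. IFN-β, the product of Ifnb1, belongs to the type I interferons and binds a receptor made of IFNAR1 and IFNAR2. IFN-γ, the product of Ifng, is the type II interferon, made mainly by T cells and NK cells, and binds IFNGR1, the ligand-binding chain, which pairs with IFNGR2. Both receptors signal through JAK kinases and STAT transcription factors, and the type I receptor uses STAT2 and IRF9. In macrophages, type I signaling induces antiviral genes, and IFN-γ signaling induces antigen presentation and antimicrobial genes.

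The values are TPM, abundances scaled to the library total and to transcript length, which can be compared between genes, but which keep no read depth. The listed genes of a library summed to 889318 to 903576 TPM, and 9260 to 10378 genes reached 1 TPM. Ikbkb, which encodes IKKβ, averaged 26.8 ± 1.99, 23.2 ± 1.44 and 16.4 ± 2.59 TPM in F/F PBS, F/F Tat and ΔMye Tat (mean ± SD, n = 6, 6 and 5), so that ΔMye Tat held 70.7% of the mean level of F/F Tat. The Cre deletes only a segment of Ikbkb, so this gene-level value says little about how complete the deletion was. The study reports reduced IKKβ mRNA by PCR and reduced protein by immunoblot in PMs of this genotype. The 8 macrophage markers were all detected and summed to 25796 to 26807, 10310 to 10890 and 8019 to 8344 TPM in F/F PBS, F/F Tat and ΔMye Tat. Lyz2 made up most of these sums, at 22382, 6993 and 4333 TPM on average, and the other markers did not all follow it. The typical gene also shifted between groups, since the median over all 10451 tested genes was a log2 difference of -0.65 in F/F Tat relative to F/F PBS and was 0.22 higher in ΔMye Tat than in F/F Tat. After median-ratio scaling, which sets the typical gene equal between libraries, these medians were -0.03 and 0.01. Scaled fold changes are given beside the deposited ones for that reason. Of the 8 macrophage markers, 3 rose and 5 fell with Tat, beside 17% and 67.6% of all tested genes. After scaling 4 rose and 2 fell, beside 37.3% and 38.0%. In ΔMye Tat against F/F Tat, 4 rose (Adgre1, Csf1r, Cd68 and Cd14) and 2 fell (Fcgr1 and Lyz2), beside 38.8% and 8.87%. Scaled, these counts were 1 and 2, beside 15.9% and 19.4%.

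Ifnb1 was below 1 TPM in every library, and its highest levels were in F/F Tat. It was listed at 0 in 4 F/F PBS libraries and at 0.141 and 0.132 TPM in the other two. The F/F Tat libraries held 0.468, 0.241, 0.375, 0.841, 0.618 and 0.279 TPM. In ΔMye Tat, 3 libraries were at 0 and the other two were at 0.373 and 0.140 TPM. Every F/F Tat library was thus above every F/F PBS library, whereas F/F Tat and ΔMye Tat overlapped. In exact permutation tests (two-sided), F/F Tat differed from F/F PBS with p = 0.00216, the smallest that these group sizes allow, and ΔMye Tat differed from F/F Tat with p = 0.00866. ΔMye Tat and F/F PBS could not be separated (p = 0.621, exact permutation test). The gene never reached 1 TPM, so it failed the minimum for the fit across genes, and it was fitted only in an alternative without that minimum.

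Ifnb1 lies on chromosome 4 (88522025 to 88522774 of GRCm38, minus strand), beside the Ifna genes. No 31-base stretch of its transcript occurs in another annotated gene. Its promoter is shown because the enhancer there is a textbook site of NF-κB and IRF binding, and the deleted kinase acts upstream of NF-κB. The 100 bases of chr4:88522860-88522959 (minus strand, GRCm38.p6, RefSeq) run from 165 to 66 bases before the annotated RefSeq start. Capitals mark, in order, 3 copies of the IRF core AANNGAAA, an NF-κB pattern (GGG and CC with any 5 bases between), the same pattern on the opposite strand, and TATAAA.
Ifnb1: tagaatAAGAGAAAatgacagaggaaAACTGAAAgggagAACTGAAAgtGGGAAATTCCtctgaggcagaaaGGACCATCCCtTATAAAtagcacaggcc
All patterns were searched on both strands. The IRF core was added after the sequence had been seen, since the fuller pattern first searched, GAAA and GAAA with any 2 bases between, was in no member's window and in 2.98% of all promoters. Among 32851 mouse promoters of 250 bases, 45.8% held the NF-κB pattern, 21.3% held AANNGAAA and 12.4% held TATAAA, so a match alone is no site.

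The other interferon ligands of the table were hardly detected. Of 19 further interferon genes, which include the Ifna family, Ifne, Ifnk, Ifnz and the Ifnl genes, 5 were at 0 in every library and 14 were above 0 in at least 1 library. Only 3 were above 0 in 3 or more libraries, and the highest single value was 0.774 TPM. None reached 1 TPM.

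Ifng was barely detected without Tat and rose strongly with it. Its TPM ranged from 0.169 to 1.52 (median 0.855) in F/F PBS and from 50.7 to 60.0 (median 57.4) in F/F Tat. The ΔMye Tat libraries held 79.4, 89.4, 86.2, 81.2 and 96.4 TPM. The 3 groups did not overlap, with F/F PBS lowest and ΔMye Tat highest. By group mean, Ifng ranked 10476, 1755 and 1323 among all rows in F/F PBS, F/F Tat and ΔMye Tat.

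The F/F Tat mean of Ifng was 56.1 ± 3.90 TPM and the F/F PBS mean 0.862 ± 0.471 TPM (SD, n = 6 each). On the log2 scale Ifng rose by 6.06 (standard error 0.28, adjusted p = 8.04e-14, limma), and by 6.64 after median-ratio scaling. In ΔMye Tat the mean was 86.5 ± 6.81 TPM (SD, n = 5), a log2 difference from F/F Tat of 0.62 (standard error 0.29). That difference missed the threshold in the fit of all 3 groups (adjusted p = 0.0733, limma), where the F/F PBS libraries, at 0.169 to 1.52 TPM, enter the shared estimate of spread. With only the compared groups fitted it passed (adjusted p = 1.12e-06, limma), as it did without F/F PBS library 2 (adjusted p = 0.00187, limma). The exact permutation test gave p = 0.00216. After median-ratio scaling the difference was 0.40 (adjusted p = 0.264, limma), or, with only the compared groups fitted, 0.40 at an adjusted p of 5.02e-04 (limma).

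Ifng lies on chromosome 10 (118441046 to 118445892, plus strand). Of its 31-base stretches, 22.6% are shared with the unconfirmed transcript Gm49751, which overlaps it on the same strand. Reads in that part could be assigned to either, and Gm49751 has no row among the values, so its level is unknown. The 250 bases before its RefSeq start (chr10:118440796-118441045, plus strand) are shown for comparison with Ifnb1. In capitals are the STAT pattern TTCNNNGAA, AANNGAAA and TATAAA, and the NF-κB pattern was not found in this window.
Ifng: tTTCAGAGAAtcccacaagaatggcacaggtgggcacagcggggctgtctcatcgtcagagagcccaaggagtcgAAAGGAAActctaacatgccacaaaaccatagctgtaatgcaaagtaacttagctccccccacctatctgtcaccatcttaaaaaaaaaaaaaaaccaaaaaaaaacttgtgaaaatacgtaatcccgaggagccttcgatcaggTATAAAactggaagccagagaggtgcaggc
TTCNNNGAA was held by 7.02% of all promoters.

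**Figure D1:**
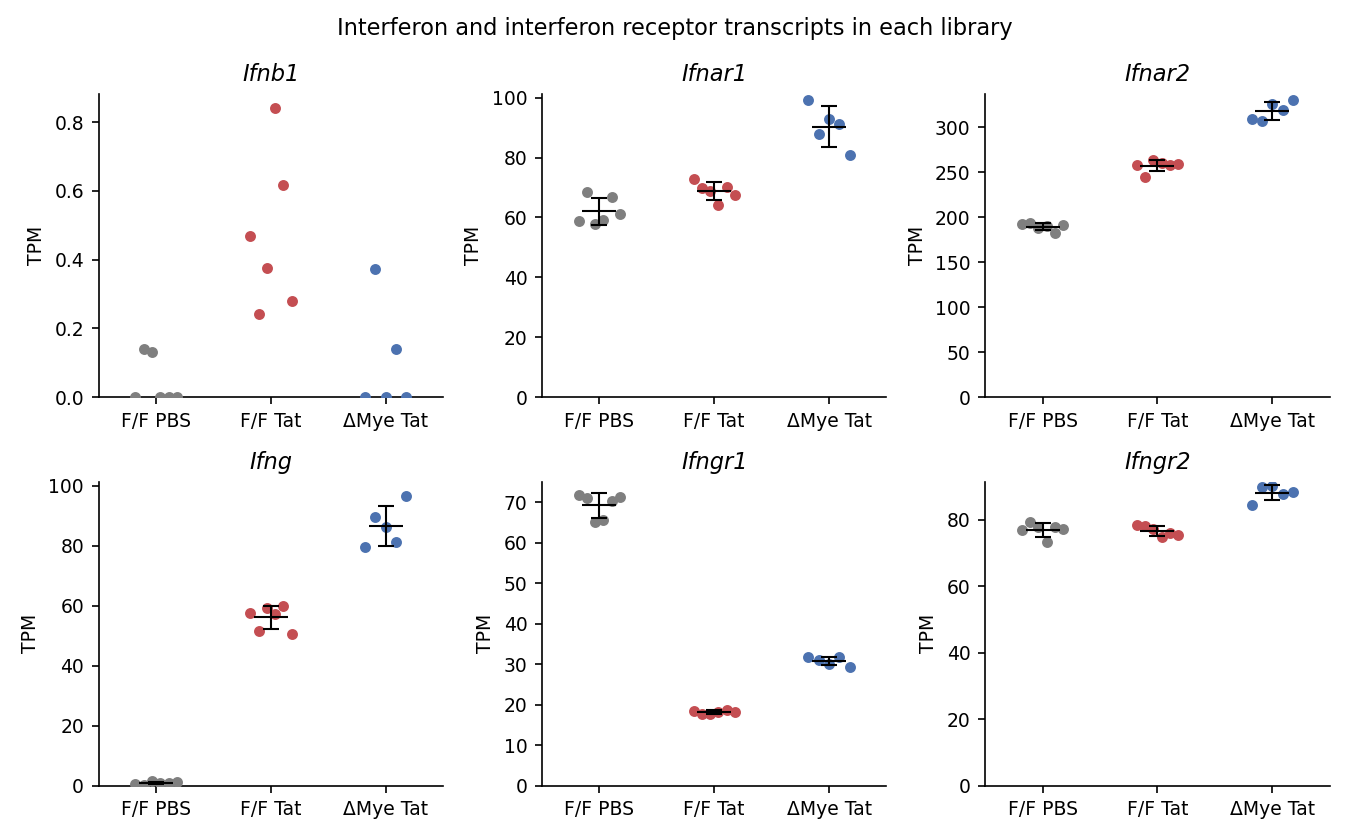
TPM of each of the 6 genes (vertical axes, from 0) in each library of the 3 groups, with the mean and SD as bars except for Ifnb1, which is at 0 in several libraries. Ifng is near 0 in F/F PBS and 50.7 TPM or more in every Tat library, whereas Ifngr1 falls from at least 65.1 TPM in F/F PBS to at most 18.8 TPM in F/F Tat and lies between 29.3 and 31.8 TPM in ΔMye Tat.

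Genes of T cells and NK cells, the usual sources of IFN-γ, were also present in these cultures. Of the 12 T cell genes, Il7r made up most of the summed level and stood at 152, 149 and 152 TPM on average in F/F PBS, F/F Tat and ΔMye Tat. The other 11, taken apart from Il7r after its level was seen, summed to between 10.3 and 18.4 TPM in F/F PBS, 9.44 and 11.2 in F/F Tat, and 19.3 and 22.8 in ΔMye Tat. With Il7r the list summed to 159 to 180, 152 to 167 and 166 to 179 TPM. Of the 9 that could be tested, 5 fell with Tat (Cd3e, Cd3d, Cd3g, Cd8a and Cd2) and 1 rose (Lck), where 67.6% of all tested genes fell and 17% rose. Median-ratio scaling left none of them lower and 3 higher, beside 38.0% and 37.3% of all tested genes.

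In ΔMye Tat against F/F Tat, 5 of the 9 rose (Cd3e, Cd3d, Cd3g, Cd8a and Thy1), beside 38.8% of all tested genes. After scaling the same 5 rose and Il7r fell (log2 fold change -0.19, adjusted p = 1.94e-04, limma), beside 15.9% and 19.4% of all tested genes. As deposited, Cd2, Cd247, Lck and Il7r did not pass. Cd3e, part of the T cell receptor complex, averaged 1.46 ± 0.625, 0.724 ± 0.117 and 1.79 ± 0.295 TPM in F/F PBS, F/F Tat and ΔMye Tat (SD). The part of T cell RNA in the Ifng levels was not tested. In bulk libraries, more cells of a type and more RNA per cell cannot be told apart.

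The 10 NK cell genes summed to 8.29 to 16.3 TPM in F/F PBS, 49.9 to 60.1 in F/F Tat and 34.8 to 41.5 in ΔMye Tat. Klrk1 (an activating receptor), Prf1 (perforin) and Gzmb (granzyme B) rose with Tat, 3 of 5 tested, beside 17% of all tested genes. All 5 were higher after scaling, beside 37.3%. Klrb1c and Klrd1, NK cell receptor genes below the minimum for the fit, were lower with Tat, from 0.860 to 0.179 TPM (exact permutation test, p = 0.00216, no overlap) and from 0.985 to 0.164 TPM (exact permutation test, p = 0.00433). Klrk1 averaged 1.54 ± 0.200, 30.2 ± 1.60 and 15.1 ± 1.87 TPM (SD) and fell in ΔMye Tat against F/F Tat. Ncr1, the defining NK receptor, stayed below 1 TPM on average, at 0.800, 0.478 and 0.858 TPM in the same order. Klrk1 and Gzmb, at 15.2 TPM in F/F Tat, held most of the list's sum there, and the part of NK cell RNA in the Ifng levels was not tested either.

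The other marker lists are given by their summed levels. B cell genes summed to 12.5 to 26.0, 11.5 to 15.3 and 8.44 to 13.1 TPM in F/F PBS, F/F Tat and ΔMye Tat. Plasmacytoid dendritic cell genes summed to 99.3 to 111, 41.7 to 48.8 and 28.9 to 33.7 TPM, nearly all of it Cox6a2, with the defining Siglech at 0.0399 TPM or less on average. Neutrophil genes summed to 122 to 139, 194 to 210 and 231 to 251 TPM, the same order of groups as Ifng, without overlap. Csf3r (54.9, 128 and 145 TPM on average) and S100a8 (53.8, 68.6 and 91.4 TPM) held most of this sum. Both rose with Tat, whereas Mmp8 fell from 15.9 to 2.57 TPM and Retnlg from 5.07 to 0.671 TPM. In ΔMye Tat against F/F Tat, 3 of 5 tested rose, beside 38.8% of all tested genes, and none passed after scaling. The part of neutrophil RNA in the Ifng levels was not tested, and Ngp was at 0 in every library. Eosinophil and mast cell genes summed to 9.07 to 12.4, 8.36 to 11 and 6.57 to 9.16 TPM, and mesothelial genes to 2.61 to 4.29, 1.81 to 3.35 and 0.897 to 1.70 TPM.

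Ifngr1, the ligand-binding chain of the IFN-γ receptor, fell sharply with Tat in F/F macrophages and was higher in ΔMye Tat than in F/F Tat. Its TPM ranged from 65.1 to 71.9 (median 70.8) in F/F PBS and from 17.6 to 18.8 (median 18.2) in F/F Tat. The ΔMye Tat libraries held 31.8, 31, 30.1, 31.7 and 29.3 TPM. The 3 groups did not overlap, and each had a narrow spread. The F/F Tat mean, 18.2 ± 0.454 TPM, was 26.3% of the F/F PBS mean of 69.2 ± 3.05 TPM, and the ΔMye Tat mean of 30.8 ± 1.05 TPM was 44.5% of it (SD).

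On the log2 scale, Ifngr1 fell by 1.92 with Tat (standard error 0.04, adjusted p = 8.75e-20, limma). After median-ratio scaling it fell by 1.29, which is under the 3-fold mark. ΔMye Tat was above F/F Tat by 0.76 (standard error 0.04, adjusted p = 9.15e-12, limma), or 0.54 after scaling (adjusted p = 3.13e-10, limma). ΔMye Tat was below F/F PBS by 1.17 (log2 fold change -1.17, adjusted p = 9.11e-16, limma). That comparison mixes genotype and treatment, so it does not give the Tat response of ΔMye macrophages.

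Ifngr2, the signaling partner of Ifngr1, did not share this pattern. It ranged from 73.2 to 79.4 TPM (median 77.5) in F/F PBS and from 74.9 to 78.5 (median 76.6) in F/F Tat, which overlap. The ΔMye Tat libraries held 84.5, 90.0, 90.3, 87.9 and 88.3 TPM, all above the other groups. As deposited, the log2 fold change with Tat was -0.01 (95% interval -0.06 to 0.05, adjusted p = 0.841, limma). Against the typical gene of the same libraries Ifngr2 rose, since the scaled fold change was 0.63 (adjusted p = 1.26e-12, limma). ΔMye Tat exceeded F/F Tat by 0.20 as deposited (adjusted p = 1.10e-05, limma), and this was -0.02 after scaling (adjusted p = 0.685, limma).

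A ratio of 2 genes within a library does not depend on how libraries are scaled. Ifngr1 to Ifngr2 was 0.899 ± 0.0331, 0.237 ± 0.00860 and 0.349 ± 0.0189 in F/F PBS, F/F Tat and ΔMye Tat (SD, n = 6, 6 and 5). In log2 terms the ratio fell by 1.92 with Tat and was 0.56 higher in ΔMye Tat than in F/F Tat, with no overlap in either comparison (exact permutation test, adjusted p = 0.00325 for each, over 6 tests of 2 ratios). The chains thus went from near parity to a several-fold excess of Ifngr2 transcript under Tat in every F/F library.

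**Figure D2:**
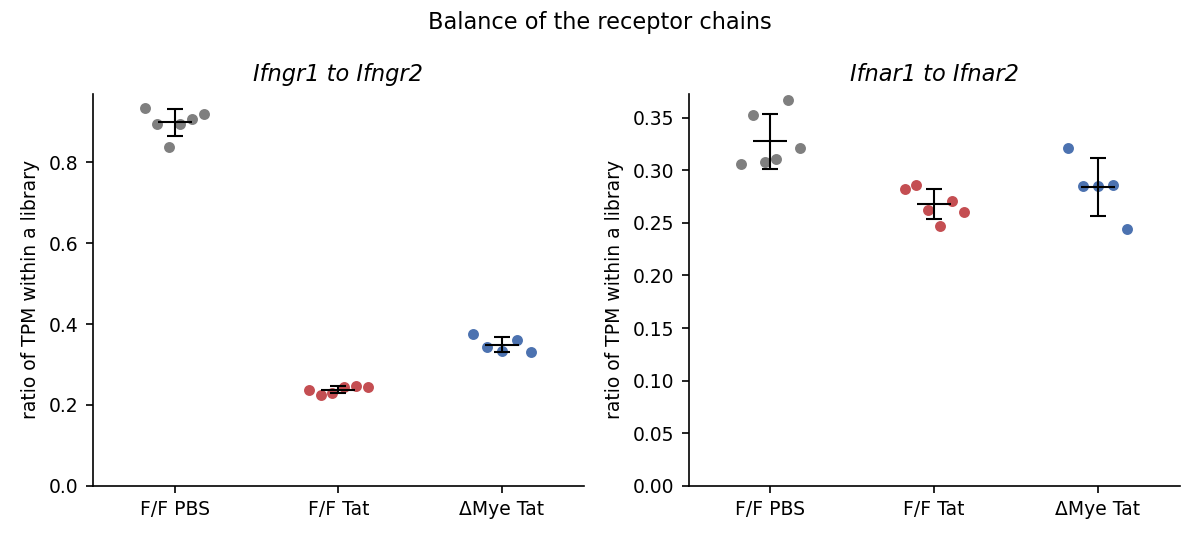
Ratio of TPM within each library (vertical axes, from 0) for Ifngr1 to Ifngr2 on the left and Ifnar1 to Ifnar2 on the right, with the mean and SD of each group as bars. The left ratio separates the 3 groups, at 0.838 or more in F/F PBS, 0.247 or less in F/F Tat and 0.332 to 0.376 in ΔMye Tat, while the right ratio overlaps between F/F Tat and ΔMye Tat.

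Ifngr1 lies on chromosome 10 (19591949 to 19610229, plus strand) and Ifngr2 on chromosome 16 (91547072 to 91565623, plus strand), so the partner chains of this receptor are not neighbors. The 250 bases before each RefSeq start (chr10:19591699-19591948 and chr16:91546809-91547058, both plus strand) are set side by side because the chains went apart under Tat. Capitals mark the NF-κB pattern on either strand.
Ifngr1: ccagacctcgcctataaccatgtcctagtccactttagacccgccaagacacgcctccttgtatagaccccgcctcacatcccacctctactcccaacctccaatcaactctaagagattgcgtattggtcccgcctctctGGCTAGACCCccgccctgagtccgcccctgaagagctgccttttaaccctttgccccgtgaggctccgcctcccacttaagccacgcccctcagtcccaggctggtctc
Ifngr2: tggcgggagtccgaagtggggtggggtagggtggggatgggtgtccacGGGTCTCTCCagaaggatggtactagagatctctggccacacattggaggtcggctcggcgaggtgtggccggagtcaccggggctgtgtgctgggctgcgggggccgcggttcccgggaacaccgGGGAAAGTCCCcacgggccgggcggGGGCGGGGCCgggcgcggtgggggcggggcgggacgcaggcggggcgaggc
Ifngr1 held 1 match, on the opposite strand, 109 to 100 bases before the start. Ifngr2 held 4 in 3 places, of which the middle one carries overlapping matches on both strands, 76 to 66 bases before the start. The Ifngr2 window had 74.0% G and C and the Ifngr1 window 59.2%, against a median of 52.4% over all promoters, and a pattern made mostly of G and C is met more often in such sequence.

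The chains of the type I receptor were higher in the Tat groups, Ifnar2 clearly and Ifnar1 only slightly in F/F macrophages. Ifnar2, which carries the high-affinity binding site for type I interferon, ranged from 182 to 194 TPM (median 191) in F/F PBS and from 245 to 263 (median 259) in F/F Tat. The ΔMye Tat libraries held 309, 307, 326, 319 and 330 TPM, and the 3 groups did not overlap. With Tat the mean went from 190 ± 4.17 to 257 ± 6.37 TPM (SD), a log2 fold change of 0.44 (adjusted p = 4.67e-12, limma) and of 1.08 after scaling. ΔMye Tat, at 318 ± 10.3 TPM (SD), exceeded F/F Tat by 0.31 (adjusted p = 2.07e-08, limma), but by 0.09 after scaling (adjusted p = 0.110, limma).

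Ifnar1, the chain that completes the type I receptor, ranged from 57.9 to 68.4 TPM (median 60.2) in F/F PBS and from 64.1 to 72.9 (median 69.4) in F/F Tat, so these groups overlapped. The ΔMye Tat libraries held 99.3, 87.7, 92.8, 91.3 and 80.7 TPM, all above both other groups. The means were 62.1 ± 4.46, 68.9 ± 2.93 and 90.3 ± 6.83 TPM (SD). The log2 fold change with Tat was 0.15 (adjusted p = 0.00982, limma), barely inside the threshold, and the adjusted p of limma ran from 0.00272 to 0.0271 when single libraries were left out, with the call lost in 12 of 17 such fits. Scaled, it was 0.79 (adjusted p = 6.71e-14, limma). ΔMye Tat exceeded F/F Tat by 0.39 (adjusted p = 6.00e-06, limma), and by 0.17 after scaling (adjusted p = 8.73e-04, limma).

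Ifnar1 to Ifnar2 was 0.328 ± 0.0259, 0.268 ± 0.0147 and 0.284 ± 0.0273 in F/F PBS, F/F Tat and ΔMye Tat (SD). The ratio fell by 0.29 on the log2 scale with Tat (exact permutation test, adjusted p = 0.00325, no overlap). Between ΔMye Tat and F/F Tat the log2 difference was 0.08 (exact permutation test, p = 0.262). Without ΔMye Tat library 23, whose ratio of 0.244 was the lowest of its group, it was 0.14 (exact permutation test, p = 0.0238). The shift of the type I chains against each other with Tat, -0.29, stands beside -1.92 for the IFN-γ receptor chains.

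**Figure D3:**
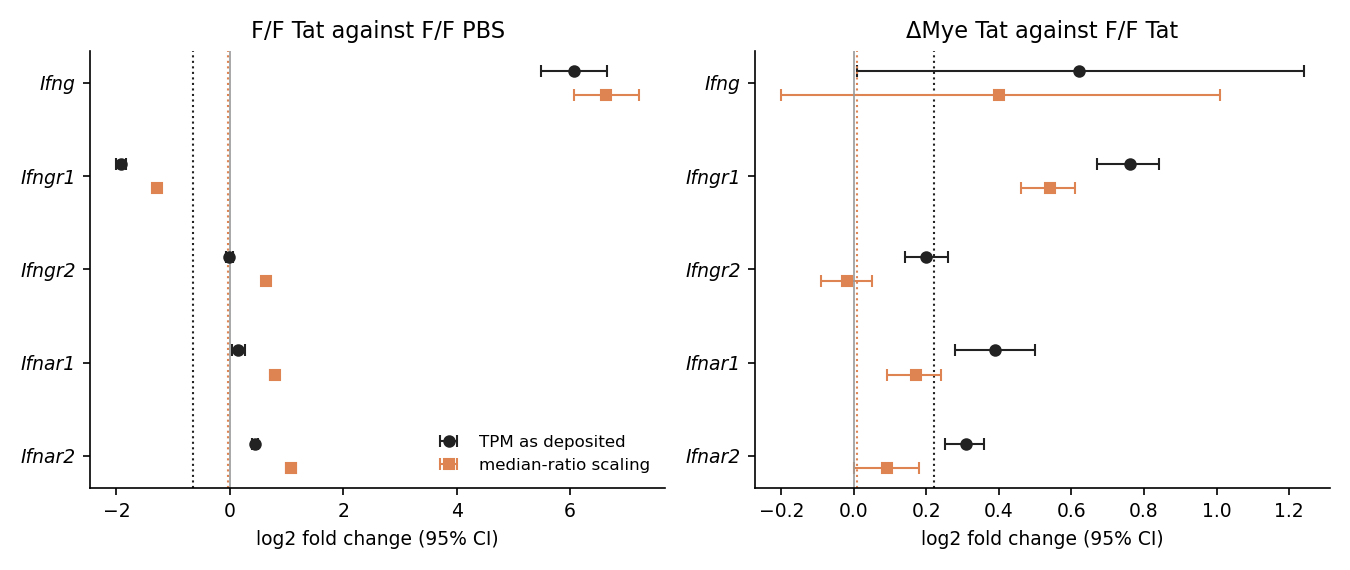
Log2 fold changes (horizontal axes) of the 5 tested genes with 95% confidence intervals from limma, for TPM as deposited (circles) and after median-ratio scaling (squares), with dotted lines at the median of all tested genes. With Tat, Ifng lies far above and Ifngr1 below all other members on either scale, and in ΔMye Tat against F/F Tat the scaled intervals of Ifng, Ifngr2 and Ifnar2 reach 0.

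Set against the whole table, F/F Tat against F/F PBS gave 3 higher members (Ifng, Ifnar1 and Ifnar2) and 1 lower (Ifngr1) of 5 tested at an adjusted p under 0.01 (limma), where 17% of all tested genes were higher and 67.6% lower. With a fold change over 3 also required, Ifng was called higher and Ifngr1 lower, beside 5.21% and 19.4% of all genes. After scaling, 4 members were higher and 1 lower, beside 37.3% and 38.0% of all genes. The groups did not overlap for Ifng, Ifnar2 and Ifngr1, and for 77.6% of all genes.

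In ΔMye Tat against F/F Tat, the 4 receptor chains were higher and none lower, while 38.8% of all tested genes were higher and 8.87% lower. No member passed the 3-fold mark. After scaling, 2 members, Ifngr1 and Ifnar1, were higher, beside 15.9% of all genes, and none was lower, beside 19.4%. All 5 tested members had groups without overlap, as did 36.6% of all genes. Against F/F PBS, ΔMye Tat had 4 members higher and Ifngr1 lower, beside 17.5% and 58.8% of all genes, and 67.7% of all genes did not overlap.

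The order of the levels changed between groups. In F/F PBS it was Ifnar2, Ifngr2, Ifngr1, Ifnar1, Ifng and Ifnb1, and only the neighbors Ifngr1 and Ifnar1 had overlapping ranges. In F/F Tat it was Ifnar2, Ifngr2, Ifnar1, Ifng, Ifngr1 and Ifnb1, with no overlap, so that the ligand Ifng stood above its own receptor chain Ifngr1. In ΔMye Tat it was Ifnar2, Ifnar1, Ifngr2, Ifng, Ifngr1 and Ifnb1, and the neighbors Ifnar1 and Ifngr2, and Ifngr2 and Ifng, overlapped. Ifnar2 was the most abundant member in all 17 libraries.

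The receptor genes Ifnar2, Ifnar1 and Ifngr2 lie within 193 kb of chromosome 16, in this order and together with Il10rb, which encodes a chain of the IL-10 receptor. Ifnar2 spans 91372783 to 91405589 and Ifnar1 91485238 to 91507441, both on the plus strand. Il10rb, between them, was at 194 ± 7.27, 180 ± 5.26 and 186 ± 5.08 TPM in F/F PBS, F/F Tat and ΔMye Tat (SD), a log2 fold change of -0.11 with Tat as deposited and 0.53 after scaling. Tmem50b, just beyond Ifngr2, averaged 41.4 ± 2.61, 52.8 ± 2.26 and 53.4 ± 1.57 TPM (SD) and rose by 0.35 with Tat, whereas Gart, a purine synthesis enzyme farther along, averaged 36.4 ± 3.15, 10.1 ± 0.926 and 17.2 ± 1.98 TPM (SD) and fell by 1.83. Son, a splicing protein gene beside Gart, fell by 0.54 as deposited, with a scaled fold change of 0.09. As deposited, genes of this stretch thus went different ways within a short distance. After scaling, Ifnar2 (1.08), Il10rb (0.53), Ifnar1 (0.79), Ifngr2 (0.63) and Tmem50b (0.98) were all higher with Tat, and Gart was lower (-1.20).

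**Figure D4:**
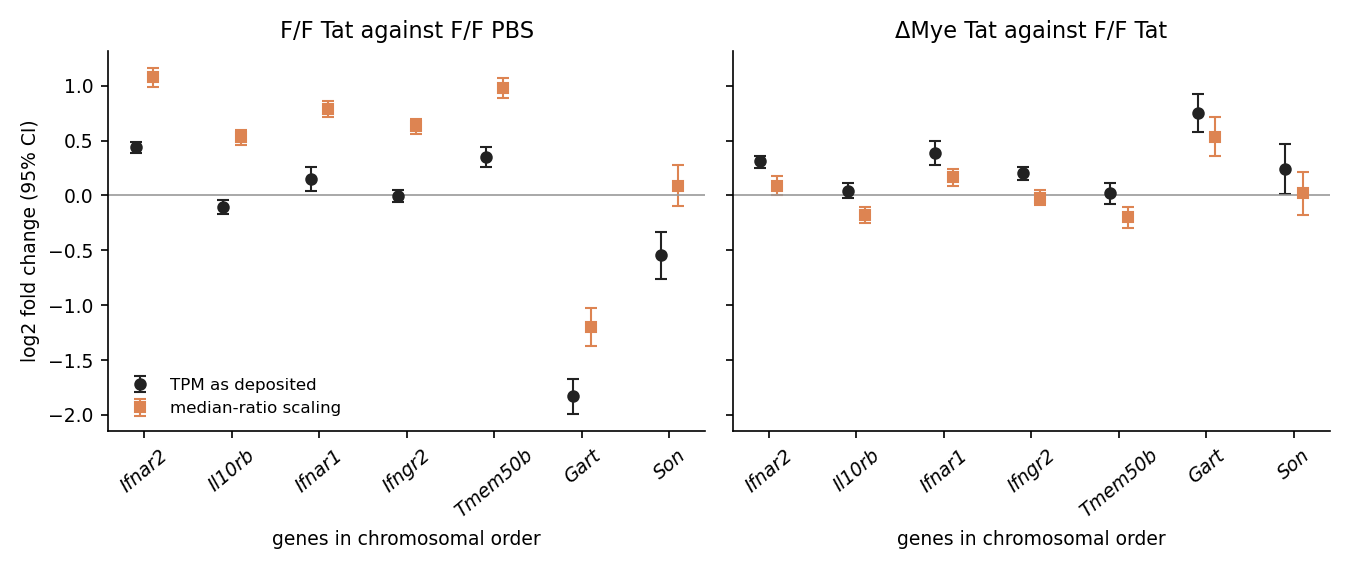
Log2 fold changes with 95% confidence intervals (vertical axes) of the tested genes around the receptor cluster of chromosome 16, in chromosomal order without scale, for TPM as deposited (circles) and after median-ratio scaling (squares). With Tat the first 5 genes lie between -0.11 and 0.44 as deposited, while Gart lies at -1.83. After scaling these 5 genes lie between 0.53 and 1.08, and Gart at -1.20.

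Near the other members, Hacd4, the closest tested gene to Ifnb1, fell from 31.4 ± 3.58 to 2.35 ± 0.335 TPM with Tat and was at 3.94 ± 0.576 TPM in ΔMye Tat (SD). Il22ra2, beside Ifngr1, was at or near 0 in all groups. Gm21970 overlaps Ifnar2 and shares 8.50% of the 31-base stretches of Ifnar2, but averaged at most 0.506 TPM in any group. For Ifnar1, Ifngr1 and Ifngr2 the shared part was 2.69%, 1.28% and 1.86%.

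By the correlation of log2 values over the 17 libraries, a description in which the points share the 3 groups, the genes most like Ifngr1 were Uap1l1, Gltp and Dgkz (r = 0.997 each). Gltp, a glycolipid transfer protein gene, went from 251 ± 7.81 to 41.2 ± 1.97 TPM with Tat and stood at 76.6 ± 2.93 TPM in ΔMye Tat (SD). Closest to Ifng were Eva1b (r = 0.995), the acute phase gene Saa3 (0.994) and the MHC class I gene H2-K1 (0.992). Ifnar2 was most like Rab32 (0.989) and Atp6v1e1 (0.988), and Ifnar1 most like Ptafr (0.983), Ptpre (0.982) and Ly9 (0.977). For Ifngr2 they were Mat2a (0.943), Tmem178 (0.938) and Tnfaip8 (0.936), and for Ifnb1 Sephs1 (0.875), Ppm1k (0.859) and Prmt2 (0.841).

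Downstream of the receptors, the JAK-STAT genes Jak2, Stat2 and Irf9 rose with Tat, beside 17% of all tested genes. Jak2, which signals from IFNGR2, went from 36.3 to 179 TPM and stood at 187 TPM in ΔMye Tat. Stat2, used by the type I receptor, averaged 57.9, 159 and 108 TPM in F/F PBS, F/F Tat and ΔMye Tat and fell in ΔMye Tat against F/F Tat (log2 fold change -0.56, adjusted p = 5.68e-07, limma). Irf9 rose by 0.11, and the log2 fold changes of Jak1 (0.05) and Tyk2 (-0.03) did not pass. After scaling these 5 genes were all higher with Tat, beside 37.3% of all tested genes. In the scaled fit of ΔMye Tat against F/F Tat, Jak2 (-0.16), Irf9 (-0.22), Stat2 and Tyk2 were lower, beside 19.4% of all tested genes. Jak1 (-0.10) did not pass there.

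Of the inhibitors of interferon signaling, 4 of 8 rose and 2 fell with Tat (median 0.62), beside 17% and 67.6% of all tested genes. After scaling all 8 were higher (median 1.25), beside 37.3% of all genes. Socs3 averaged 53.0, 680 and 670 TPM, and Socs1 6.99, 66.7 and 88.9 TPM in F/F PBS, F/F Tat and ΔMye Tat. Usp18, an inhibitor that binds IFNAR2, averaged 98.7, 685 and 285 TPM and fell by 1.26 in ΔMye Tat against F/F Tat. The phosphatase gene Ptpn2 also rose with Tat, by 1.12, while Ptpn1 (-0.19) and Ptpn6 (-0.35) fell as deposited and were higher after scaling (0.45 and 0.28). In ΔMye Tat 3 rose (Socs1, Ptpn1 and Ptpn6) and Usp18 fell, beside 38.8% and 8.87% of all tested genes. The scaled fit left only Ptpn6 higher and 3 lower, beside 15.9% and 19.4%. Ptpn11 and Pias1 passed in neither comparison as deposited, and rose with Tat by 0.75 and 0.49 after scaling.

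Of the other class II cytokine receptors, the family of the interferon receptors, 4 of 8 reached the minimum. With Tat, 3 rose (F3, Il10ra and Il20rb) and Il10rb fell as deposited (median 0.88), beside 17% and 67.6% of all tested genes. After scaling all 4 were higher (median 1.49), beside 37.3%. In ΔMye Tat against F/F Tat, 1 was lower as deposited, beside 8.87% of all tested genes. After scaling 3 were lower there, beside 19.4%, and none was higher in either fit. F3, tissue factor, averaged 2.0, 28.1 and 16.3 TPM and fell by 0.77 in ΔMye Tat against F/F Tat. Il10ra, the partner of Il10rb, averaged 30.0, 64.2 and 60.9 TPM. Ifnlr1, the receptor chain for type III interferon, Il20ra, Il22ra1 and Il22ra2 were at or near 0.

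Sensors, adaptors and transcription factors that induce Ifnb1 were mixed. With Tat, 10 of 18 were higher and 5 lower (median 0.42), beside 17% and 67.6% of all tested genes. The sensors Ifih1 and Tlr3 and the transcription factor Irf7 rose most, from 27.8 to 191, from 5.38 to 35.5 and from 385 to 1866 TPM. In ΔMye Tat, 6 of the 18 were higher than in F/F Tat and 4 lower, beside 38.8% and 8.87% of all tested genes, and Tlr3 fell by 1.29, to 14.4 TPM. After scaling 14 were higher and 3 lower with Tat, beside 37.3% and 38.0% of all tested genes. In ΔMye Tat 2 were then higher and 9 lower, beside 15.9% and 19.4%.

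Of the genes that induce Ifng in other cells or in its producers, 9 of 12 tested rose with Tat and none fell (median 1.61). Among all tested genes, 17% rose and 67.6% fell. The IL-12 subunit genes Il12a and Il12b and the IL-15 receptor gene Il15ra rose most, from 3.11 to 459, from 10.2 to 391 and from 7.66 to 130 TPM. In ΔMye Tat against F/F Tat, 3 were higher and 5 lower, beside 38.8% and 8.87% of all tested genes, and the IL-12 subunits went apart. Il12b rose to 638 TPM (log2 fold change 0.70) and Il12a fell to 286 TPM (-0.68). The other two that rose were the IL-18 receptor genes Il18r1, at 2.44 TPM, and Il18rap, at 1.52 TPM, named after their values were seen and low in all groups. The scaled counts in ΔMye Tat were likewise 3 and 5, beside 15.9% and 19.4% of all tested genes.

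Target genes of both interferon types were also measured. All 14 type I targets in the table rose with Tat (median 3.06), where 17% of all tested genes rose. All 14 were lower in ΔMye Tat than in F/F Tat (median -0.75, and -0.97 after scaling), where 8.87% of all tested genes were lower as deposited and 19.4% after scaling. The antiviral genes Rsad2, Cmpk2 and Isg15 averaged 85.3, 39.3 and 458 TPM in F/F PBS, 2952, 1116 and 5827 TPM in F/F Tat, and 984, 362 and 3609 TPM in ΔMye Tat. The ΔMye Tat means of these 3 genes thus lay between those of the other groups. The list shares Irf7 and Usp18 with those above.

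Of 12 tested IFN-γ targets, 8 rose and 2 fell with Tat (median 2.22), beside 17% and 67.6% of all tested genes. After scaling 10 rose and 1 fell, beside 37.3% and 38.0%. Iigp1 and Gbp2, which act against intracellular microbes, went from 3.86 to 97.2 and from 120 to 1571 TPM, and the chemokine gene Cxcl9 from 0.588 to 11.6 TPM. In ΔMye Tat against F/F Tat, 8 rose and 3 fell (median 0.70), where 38.8% of all tested genes rose and 8.87% fell. After scaling 7 rose and 4 fell (median 0.48), beside 15.9% and 19.4%. Iigp1 and Cxcl9 rose further, to 152 and 19.7 TPM, and Gbp2 fell to 1230 TPM. The largest rise, singled out after the values were seen, was of Ciita, the master regulator of MHC class II genes, at 2.30, 0.966 and 5.28 TPM in F/F PBS, F/F Tat and ΔMye Tat. The class II genes H2-Aa, H2-Ab1 and Cd74 rose in ΔMye Tat as well, by 1.42, 1.25 and 1.19. Their log2 fold changes with Tat were -0.56, -0.05 and -0.08 as deposited and 0.07, 0.58 and 0.55 after scaling. IFN-γ and type I interferon share many targets, so the lists are not exclusive readouts of either ligand.

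**Figure D5:**
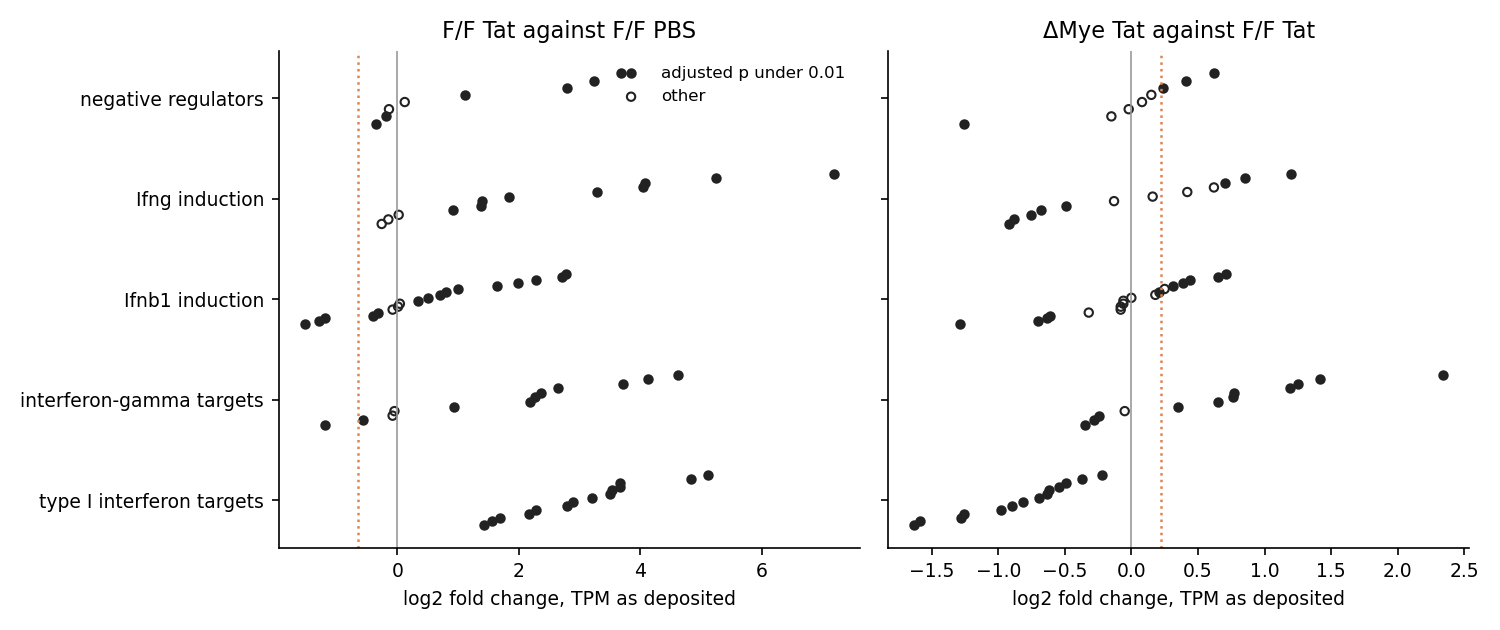
Log2 fold change of TPM as deposited (horizontal axes) for each tested gene of 5 lists, with filled points at an adjusted p under 0.01 and a dotted line at the median of all tested genes. With Tat, all 14 type I interferon targets lie to the right of 0, and in ΔMye Tat against F/F Tat all 14 lie to the left, while IFN-γ targets reach 2.34.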

How the data were processed

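RNA-Seq values of 17 libraries (F/F PBS, F/F Tat and ΔMye Tat) were analysed, grouped by the sample labels. The authors ran Salmon against Ensembl transcripts (GRCm38) and deposited TPM by gene symbol. The authors' edgeR comparison was not used or repeated. TPM hold no depth, so no counting intervals are given.

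Rows that reached 1 TPM in 5 or more libraries (10451 of 21683) were tested on log2(TPM + 0.1), a scale that understates changes of low genes, with limma 3.58.1 in R 4.3.3 (trend, a single fit of the 3 groups with 14 residual degrees of freedom). Adjusted p (Benjamini-Hochberg over all tested genes) under 0.01 passed, and a call also needed a fold change over 3, after the study's thresholds. Single values and ratios were tested by exact two-sided permutation. Median-ratio scaling used tested genes without a 0. The fit was tested on simulated data.

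Named were the 6 members, the 3 genes most correlated with each, genes within 100 kb, Ikbkb, and of each pathway list the 3 largest Tat responses, or all of a list of 8 or fewer. Exceptions are marked, and some results of this rule and of the JAK-STAT list are not reported here. Members, lists and the 8 marker lists were chosen with earlier results of these data known. Coordinates are from GENCODE M21 and promoters from RefSeq (GRCm38.p6), where all 6 members matched. The alternatives covered other pseudocounts (0.5 and 1), other filters (none or 5 TPM), other normalization (median-ratio or quantile), fits of the compared groups only, array weights with robust eBayes, and fits without each library in turn. Permutation tests enumerated all splits of the compared libraries with numpy 2.4.6 under Python 3.11.15.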

Additional observations from a re-analysis of the deposited data

Results flagged for a closer look

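Of 24 groups of member values and chain ratios examined for a sample far from the others, 1 stood out. Ifnar2 in F/F Tat library 8 was the lowest of its group at 245 TPM, and its gap to the next library was 0.724 of the group's whole range. Chance marks about 1 in 20 such groups. The other 5 libraries of the group lay between 258 and 263 TPM, and library 8 was still above every F/F PBS library.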

How the results depend on the processing

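No paired analysis was possible because the library numbers do not repeat between groups. Of 390 alternative values of the member fold changes, 361 kept their direction and side of the threshold. Directions that changed were those of Ifngr2. With Tat its log2 fold change of -0.01 became 0.63 after median-ratio scaling, in all groups or the compared groups only, 0.17 after quantile normalization and 0.00 with robust eBayes and array weights, and it ran from -0.02 to -0.00 with single libraries left out. In ΔMye Tat against F/F Tat its 0.20 became -0.02 after scaling in either fit and 0.10 after quantile normalization (adjusted p = 0.0137, limma). There Ifnar2 lost its call after scaling, at 0.09 in either fit (adjusted p = 0.110 and 0.133, limma). Ifng, at 0.62, passed with pseudocounts of 0.5 and 1 and in a fit of the compared groups, all at 0.62, and at 0.40 in the scaled fit of those groups, which was added after the data were seen. It ran from 0.58 to 0.65 with single libraries left out. Ifnar1 with Tat lost its call with no filter, at 0.15 (adjusted p = 0.0144, limma), and ran from 0.13 to 0.18 with libraries left out. The Ifnar1 to Ifnar2 ratio ran from 0.04 to 0.14 (ΔMye Tat against F/F Tat) and from -0.25 to -0.15 (against F/F PBS) with libraries left out, where p reached 0.0571 in the exact permutation test without ΔMye Tat library 23.

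Over all genes, those higher and lower with Tat numbered 1774 and 7068, or 3893 and 3967 after scaling and 3605 and 4182 after quantile normalization. Genes called higher went from 545 to 889 and 867 under these settings. Genes called lower went from 2031 to 1017 and 826, to 1197 with a pseudocount of 1 and to 1281 with the 5 TPM filter. For ΔMye Tat against F/F Tat, 4055 higher and 927 lower became 1658 and 2027 after scaling and 1845 and 1599 after quantile normalization. Against F/F PBS, 1834 and 6143 became 3530 and 3539, and 3270 and 3789. Without a filter Ifnb1 could be fitted, with log2 fold changes of 2.01 with Tat (adjusted p = 2.11e-04, limma) and -1.72 in ΔMye Tat against F/F Tat (adjusted p = 0.00311, limma), which depend on the pseudocount. TPM hold no depth, so how far depth limits the low values of Ifnb1 is unknown.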
